A study of Caenorhabditis elegans with 2 samples.

Results

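The transcripts of cytochrome P450 genes were compared between 2 arrays of whole nematodes, wild type of the N2 strain: an anatase array, from worms kept with 500 µg/ml of the particles, and a control array, from worms that received none. Anatase, one of the crystal forms of titanium dioxide, was given as nanoparticles in the worms' liquid growth medium, away from light. Worms of both groups were synchronised wild type reared on plates with bacteria, and no other allele or agent is labelled. How old the worms were, how long they were exposed, and whether the control worms were also held in the liquid medium and in the dark is not stated in the labels. Each array carries the replicate number 3, and only these arrays were analysed here. The genes were chosen by name: a probe set counted if the platform annotation gave it exactly 1 gene symbol and that symbol was cyp- followed by a number. This gave 78 probe sets for 73 genes, out of 17118 genes on the array, and the rule itself uses no measured value.

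P450 enzymes are monooxygenases that carry a haem group, take electrons from NADPH through a reductase and put 1 oxygen atom of molecular oxygen into a substrate. In the worm some act on foreign compounds, the first phase of detoxification, before transferases attach sugars or glutathione. Others act on the animal's own fatty acids and sterols, which places them in eggshell formation, eicosanoid synthesis and hormone synthesis. Many of the genes induced by foreign compounds are expressed in the intestine. The number after cyp- gives the family and the letter the subfamily, and the worm families are commonly grouped with the human CYP2, CYP3 and CYP4 enzymes by sequence.

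Each probe set has 1 deposited intensity on each array, on a linear scale, and a difference is the anatase array minus the control array in log2(intensity + 16). The pseudocount of 16 understates the fold of a dim gene. Over all probe sets the control array had a median intensity of 123.1 and the anatase array one of 117.8, with 15.8% and 18.0% of them below 16. No detection calls were used here, so whether a dim P450 gene lay above background is unknown. With 1 array per group no difference has a replicate check, a test or an error: precision is limited by how few arrays there are. Each symbol matched the RefSeq gene table of assembly WBcel235, which lists 70 of the 73 genes as protein coding and cyp-29A1, cyp-31A1 and cyp-34A3 as pseudogenes. Of the 73 genes, 68 were read by 1 probe set and 5 by 2. For 8 of them each probe set was of a shared type, whose probes may also bind transcripts of related genes: cyp-13B1, cyp-14A5, cyp-31A1, cyp-31A2, cyp-32B1, cyp-33C4, cyp-33C5 and cyp-37A1. Another 7 genes of that table with such a symbol had no probe set naming them alone.

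As a family, the P450 genes lay close to equal signal on both arrays. Of the 73 genes, 35 were higher and 38 lower on the anatase array, and 54.7% of all genes were lower. The median difference was −0.08 log2 units, against −0.04 over all genes. A difference of at most 0.5 log2 units was read for 53 of them, which is 72.6%, against 78.5% of all genes. The sign of the family median depended on scaling: it was 0.07 after a loess correction and 0.07 after quantile normalization, where the all-gene medians were 0.0031 and 0.0069.

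At least 2-fold differences were read for 6 P450 genes. Only cyp-33C2 was higher, 1.37% of the family, against 1.58% of all genes. The 5 lower ones were cyp-14A1, cyp-29A4, cyp-23A1, cyp-35B3 and cyp-35A5, 6.85% of the family, against 3.48% of all genes. All 6 fell in the dimmest group when genes were cut into 4 equal groups by mean log2 value over both arrays, here called brightness. That group held 27 of the 73 P450 genes, and in it 5 of 27 (18.5%) were at least 2-fold lower, against 9.88% of all genes there. The 1 higher gene of the 27 (3.7%) stands against 5% of them. The other 3 brightness groups held 22, 16 and 8 P450 genes, and none of these differed by 2-fold. Brightness includes the anatase reading, so a value near 0 on 1 array itself moves a gene toward the dimmest group. The grouping is therefore not independent of the differences. On the control array alone, the 5 lower genes read from 39.5 to 69.9. Over all genes outside the dimmest group, 0.444% were higher by that much and 1.35% lower. With 64 as the pseudocount both counts were 0, against 0.0701% and 0.14% of all genes, and with 1 as the pseudocount they were 4 higher and 16 lower, against 5.75% and 10.3%. At 1.5-fold, 3 P450 genes were higher and 14 lower, where 5.63% and 11.2% of all genes were. At 3-fold, 0 were higher and 2 lower, where 0.134% and 0.444% of all genes were.

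**Figure D1:**
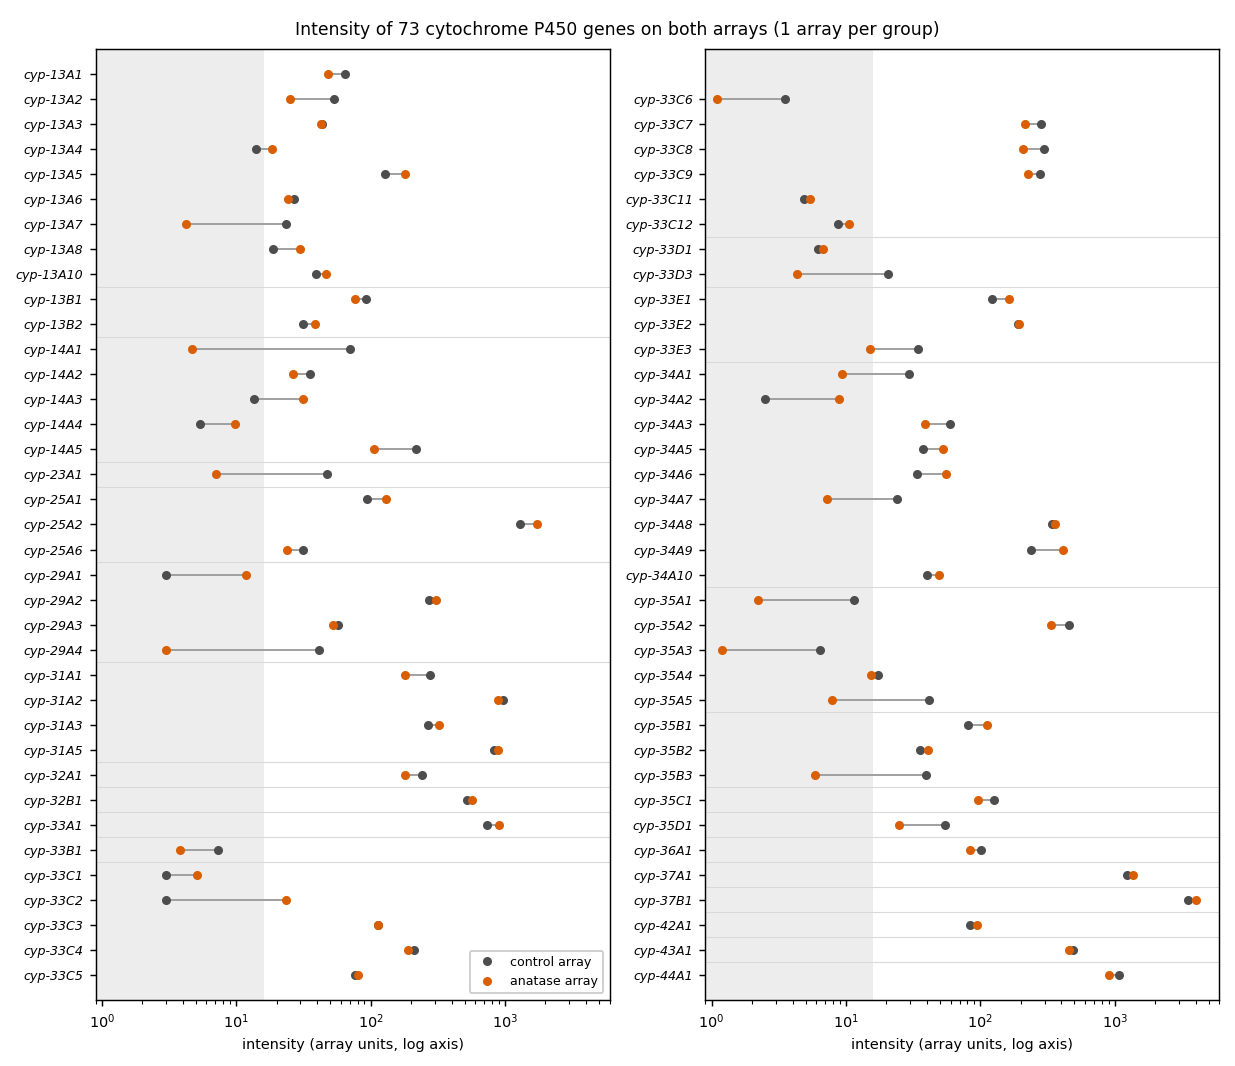
Intensity of each of the 73 P450 genes on the control array (grey points) and the anatase array (orange points), in array units on a log axis, with 1 line per gene and thin rules between subfamilies. The shaded zone lies below 16: there 11 genes have both points, 11 have the anatase point alone and 3 the control point alone.

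The plot of all members shows where these gaps lie. Intensities below 16 on both arrays were read for 11 P450 genes, and 48 were at or above 16 on both. In between, 11 genes were below 16 on the anatase array alone and 3 on the control array alone. The 5 genes at least 2-fold lower belong to those 11, and cyp-33C2 was below 16 on the control array alone. In the dimmest brightness group, the median difference of all genes was −0.08 and 58% of them were lower. In the next group the median was −0.15, and in the brighter ones −0.0023 and 0.02.

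**Figure D2:**
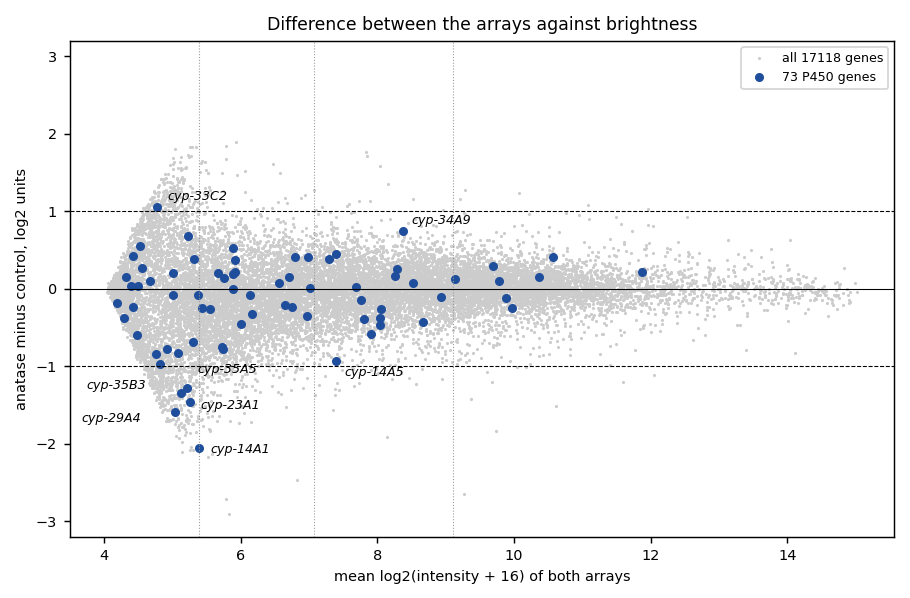
Difference (anatase minus control, log2 units) against mean log2(intensity + 16) for all 17118 genes (grey) and the 73 P450 genes (blue), with dotted lines at the borders of the 4 brightness groups and dashed lines at 2-fold. The P450 points past 2-fold sit at the dim end, and to the right of the median brightness the P450 differences run from −0.94 to 0.75.

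As the plot against brightness shows, 24 P450 genes reached the median brightness of all genes. Of these, 13 were higher and 11 lower, with a median of 0.05 against 0.01 over all genes at that brightness, of which 48.4% were lower. Their lowest difference was that of cyp-14A5, and their highest that of cyp-34A9. How far probe sets of a gene disagree on its difference was judged from genes with exactly 2 probe sets. Over the 2496 genes of this kind, the SD for a single probe set was 0.35 log2 units. Among the dimmest genes it was 0.57, and among the brightest 0.19. This SD comes from the same 2 arrays. It leaves out variation between worm cultures, RNA preparations and arrays, so it is not the error of a difference.

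The CYP2-like families 14, 33, 34, 35 and 36 hold most of the worm's genes that respond to foreign compounds. They supplied 43 of the 73 genes, of which 20 were higher and 23 lower, with a median of −0.14. Over all genes, 54.7% were lower and the median was −0.04, and the contrast was not tested. This grouping by human counterpart was made after the values were seen.

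Family 35 is the group best known for induction by foreign compounds, and it was mostly lower on the anatase array. Of its 10 genes, 8 were lower and 2 higher, with a median of −0.41. Over all genes, 54.7% were lower and the median was −0.04, and the contrast was not tested. Only cyp-35A2 of this family reached the median brightness. All 5 genes of subfamily 35A, which are used as reporters of organic pollutants and also affect fat storage, were lower, with differences from −1.28 to −0.08. cyp-35A2 is the member of 35A that reached the median brightness, and it read 459.4 on the control array and 336 on the anatase array, a difference of −0.43. cyp-35A5 read 41.7 and 7.8, a difference of −1.28. The remaining members of 35A were near or below 16 on both arrays: cyp-35A1 read 11.5 and 2.2, cyp-35A3 read 6.4 and 1.2, and cyp-35A4 read 17.2 and 15.4. Their differences were −0.60, −0.38 and −0.08, and that of cyp-35A4 turned to 0.08 after the loess correction and to 0.08 after quantile normalization. Of the 5 genes of 35A, only cyp-35A2 was above 16 on both arrays.

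The other subfamilies of family 35 were divided. cyp-35B1, also called dod-13 and placed downstream of the insulin pathway factor DAF-16, read 80.6 on the control array and 112.1 on the anatase array, a difference of 0.41. cyp-35B2 was at 0.14, from 35.4 to 40.7. cyp-35B3 went the other way, from 39.5 to 5.9, a difference of −1.34. cyp-35C1 was read by 2 probe sets, at 90.3 and 173.3 on the control array and 59 and 149.5 on the anatase array. Both were lower, by −0.50 and −0.19, and the gene's mean difference was −0.35. cyp-35D1, whose enzyme hydroxylates the anthelmintic thiabendazole, read 54.3 and 24.9, a difference of −0.78.

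Intestinal markers also lay lower on the anatase array: 8 of the 10 genes were lower, where 54.7% of all genes were. Their median was −0.33, with a range from −2.65, for the metallothionein gene mtl-2, to 0.16, for the esterase gene ges-1. The next lowest after mtl-2 was pept-1, at −0.90. Only probe sets of shared types read mtl-2, ges-1, ifb-2, act-5 and pho-1. Summed over the list, the control array gave an intensity of 57140 and the anatase array one of 50611, and none of its genes was below 16. The largest parts of these sums were asp-1, from 26961.5 to 24437.1, and cpr-1, from 17073 to 15953. Their differences were −0.14 and −0.10, so the sums mostly reflect these genes. The intestinal transcription factor gene elt-2 read 395 and 255, a difference of −0.60, and the peptide transporter gene pept-1 read 984.4 and 521.6, a difference of −0.90. The higher markers were ges-1, from 1209 to 1348.6, and the intermediate filament gene ifb-2, from 2796.9 to 3045.9. In whole worms, fewer cells of a type and less RNA per cell cannot be told apart, and the part of the intestine in the family 35 values was not tested. The markers of the other tissues had medians of −0.21 (hypodermis, all 6 lower), 0.05 (muscle), 0.17 (neuron, all 6 higher), 0.05 (germline), 0.17 (sperm, all 5 higher) and 0.01 (embryo and eggshell). None of these markers was below 16 on either array.

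Subfamily 14A gave both the largest P450 difference and the largest lower value among members at or above the median brightness. cyp-14A1 read 69.9 on the control array and 4.7 on the anatase array, a difference of −2.05. cyp-14A5 read 216.8 and 105.3, a difference of −0.94, from a single probe set of a shared type. The subfamily was not uniform. cyp-14A2 was at −0.27, from 35.2 to 26.6, while cyp-14A3 went from 13.6 to 31.4, a difference of 0.68, and cyp-14A4 from 5.4 to 9.8, a difference of 0.27. The median of the 5 genes was −0.27, and it was 0.0022 without shared probe sets, since cyp-14A5 then has none.

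Family 34, of which cyp-34A9 is also called dod-16 for its place downstream of DAF-16, leaned the other way. Of its 9 genes, 6 were higher and 3 lower, with a median of 0.21, where 54.7% of all genes were lower. cyp-34A9 read 239.8 on the control array and 413.4 on the anatase array, and its difference of 0.75 was the highest of the 24 P450 genes at or above the median brightness. Its neighbour cyp-34A8 read 341.6 and 360.6, a difference of 0.07, far less than cyp-34A9. Among the dimmer members, cyp-34A6 went from 33.7 to 55.4, cyp-34A5 from 37.2 to 52.8, cyp-34A10 from 40.3 to 49.1 and cyp-34A2 from 2.5 to 8.8. The 3 lower ones were cyp-34A1, from 29.2 to 9.4, cyp-34A7, from 23.8 to 7.2, and the pseudogene cyp-34A3, from 59 to 38.7.

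Family 33 was the most numerous, with 18 genes, 10 higher and 8 lower, and a median of 0.01, where 54.7% of all genes were lower. cyp-33E2, which oxidises eicosapentaenoic acid and is expressed in the pharynx, read 189.4 on the control array and 192.8 on the anatase array, a difference of 0.02. cyp-33E1 was at 0.38, from 122 to 163.4, and the dimmer cyp-33E3 at −0.69, from 34.2 to 15.1. cyp-33A1 read 731.1 and 897.9, a difference of 0.29. In subfamily 33C, 6 genes were higher and 5 lower. Its 4 members at or above the median brightness were all lower: cyp-33C8 at −0.47, from 294.8 to 208.2, cyp-33C7 at −0.38, cyp-33C9 at −0.26 and cyp-33C4 at −0.14. Of all genes at that brightness 48.4% were lower, and the contrast was not tested. Both cyp-33C4 and cyp-33C5 were read only by a probe set of a shared type. cyp-33C3 was nearly level at 112.7 and 112.9, and cyp-33C5 went from 75.9 to 80.9. The family's only 2-fold difference, that of cyp-33C2, ran from 3 to 23.5, or 1.06 log2 units. The other dim genes of the family, cyp-33B1, cyp-33C1, cyp-33C6, cyp-33C11, cyp-33C12 and cyp-33D1, were below 16 on both arrays. cyp-33D3 went from 20.4 to 4.3, a difference of −0.84.

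cyp-36A1, which acts downstream of the hypoxia-inducible factor, read 101.3 on the control array and 83.3 on the anatase array, a difference of −0.24.

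In the CYP3-like families 13, 25 and 43, 7 of 15 genes were higher and 8 lower, with a median of −0.01. Over all genes, 54.7% were lower. None of the 15 differed by 2-fold. With 1.58% of all genes higher and 3.48% lower by that much, 0 of 15 is near the background. Subfamily 13A, 9 genes related to the human drug-metabolising CYP3A enzymes, had 4 higher and 5 lower. cyp-13A5 is its one member at or above the median brightness, and it read 128.3 on the control array and 180.1 on the anatase array, a difference of 0.44. cyp-13A7, a gene that the antibiotic rifampicin is known to induce, went from 23.5 to 4.2, a difference of −0.97, just short of 2-fold. cyp-13A2 was at −0.76, from 53.2 to 25, and cyp-13A1 at −0.33, from 64.5 to 47.9. cyp-13A8 was at 0.39, from 18.9 to 29.6, and cyp-13A3, cyp-13A4, cyp-13A6 and cyp-13A10 lay between −0.08 and 0.20. In subfamily 13B, cyp-13B1 was at −0.22, where its 2 probe sets gave −0.05 and −0.38, and cyp-13B2 at 0.21.

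In subfamily 25A, cyp-25A1 and cyp-25A2 lie next to each other and gave nearly equal differences. cyp-25A2 read 1302.1 on the control array and 1729.5 on the anatase array, a difference of 0.41. cyp-25A1 read 94.3 and 130.8, also a difference of 0.41. cyp-25A6, which lies elsewhere, was at −0.25, from 31.4 to 23.8. cyp-43A1 read 490.7 and 453.2, a difference of −0.11.

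The CYP4-like families 29, 31, 32, 37 and 42, enzymes related to fatty acid hydroxylases, had 8 of 13 genes higher and 5 lower, with a median of 0.12. Over all genes 54.7% were lower, and 48.4% of those at or above the median brightness. The contrast was not tested. Of these 13 genes, 9 reached the median brightness, against 11 of 43 in the CYP2-like families and 3 of 15 in the CYP3-like ones. cyp-29A3, which takes part in eicosanoid synthesis, read 56.7 on the control array and 52.9 on the anatase array. Its difference of −0.08 turned to 0.09 after the loess correction and to 0.08 after quantile normalization. cyp-29A2 was at 0.16, from 273.4 to 308, and cyp-29A4 at −1.59, from 41.1 to 3. The pseudogene cyp-29A1 was below 16 on both arrays.

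cyp-31A2 and cyp-31A3, near-identical genes needed to make the lipid layer of the eggshell, did not share a direction. cyp-31A2 read 967.2 on the control array and 886.8 on the anatase array, a difference of −0.12. cyp-31A3 read 269 and 324.4, a difference of 0.26. cyp-31A5 was at 0.10, from 830.3 to 892.2, and the pseudogene cyp-31A1 at −0.58, from 276.6 to 179.6. The probe sets of cyp-31A1 and cyp-31A2 are of shared types, so these readings may hold signal of the other copies.

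The remaining CYP4-like genes differed by at most 0.40 log2 units. cyp-37B1 read 3476.3 on the control array and 4052.6 on the anatase array, a difference of 0.22, and cyp-37A1 read 1236.9 and 1376.1, a difference of 0.15. cyp-32A1 was lower by both of its probe sets: one went from 171.7 to 107.5, a difference of −0.60, and the other, of a shared type, from 337.6 to 294.2, a difference of −0.19. Its mean difference was −0.40. cyp-32B1 was at 0.12, from 525 to 572.7. cyp-42A1 was at 0.15, with 0.05 from a shared probe set that went from 86.6 to 90 and 0.25 from one that went from 81.2 to 99.3.

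Outside these groups, cyp-44A1, the worm's P450 of mitochondrial type, read 1082.9 on the control array and 911.2 on the anatase array, a difference of −0.25. cyp-23A1 is the one gene past 2-fold that was read by 2 probe sets. They read 62.2 and 35.6 on the control array and 3.2 and 11.6 on the anatase array, so both were lower, by −2.03 and −0.90, and the mean difference was −1.46. Only the first of these readings passed 2-fold, and it comes from a probe set of a shared type. All 5 P450 genes with 2 probe sets had both differences on the same side of 0, and 57.3% of the 2496 such genes on the array did. With only 5 genes this was not tested. Some of these differences were near 0, such as −0.05 for cyp-13B1 and 0.05 for cyp-42A1, both from probe sets of shared types.

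**Figure D3:**
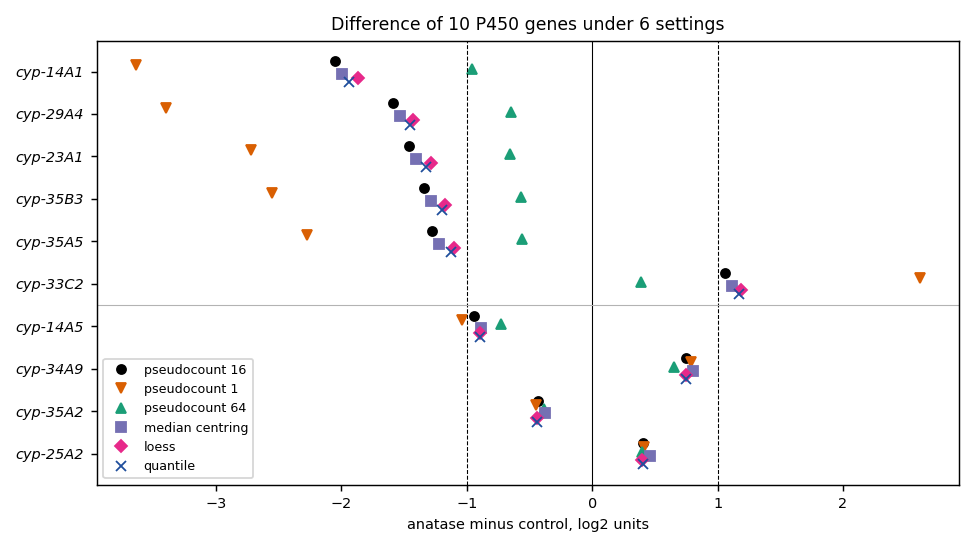
Difference (anatase minus control, log2 units) of the 6 P450 genes past 2-fold (above the thin rule) and of 4 brighter ones under 3 pseudocounts and 3 scalings, with dashed lines at 2-fold. The difference of cyp-14A1 runs from −3.64 to −0.96, whereas that of cyp-34A9 stays between 0.65 and 0.80.

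The plot of settings shows how far the dim differences depend on the pseudocount. The difference of cyp-14A1 was −3.64 with a pseudocount of 1 and −0.96 with 64, that of cyp-29A4 −3.40 and −0.65, and that of cyp-33C2 2.61 and 0.39. At or above the median brightness the ranges were narrower but not all small. cyp-35A2 ranged from −0.45 to −0.38 over its 9 alternatives and cyp-25A2 from 0.39 to 0.46. cyp-14A5 ran from −1.03, past 2-fold, with a pseudocount of 1 to −0.73 with 64, and cyp-32A1 from −0.60 to −0.19, as its probe sets did. No setting turned the direction of any of the 6 genes past 2-fold. Only the scalings could have done so, since for these genes a change of pseudocount or probe set cannot turn a sign.

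Many P450 genes of the worm stand in rows of close relatives. In the order of protein-coding genes and pseudogenes of WBcel235, 10 runs held at least 2 measured P450 genes with no other gene between, 34 genes in all. In 7 of these runs some genes were higher and some lower. Among the 3 others, cyp-25A1 with cyp-25A2 and cyp-32B1 with cyp-33C12 were higher, and cyp-35A1 with cyp-35A2 was lower. Of these, cyp-33C12 and cyp-35A1 were below 16 on both arrays, and cyp-32B1 and cyp-33C12 are of different families. How many mixed runs unrelated genes would give was not computed. The count of mixed runs therefore does not show whether neighbours share a direction.

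**Figure D4:**
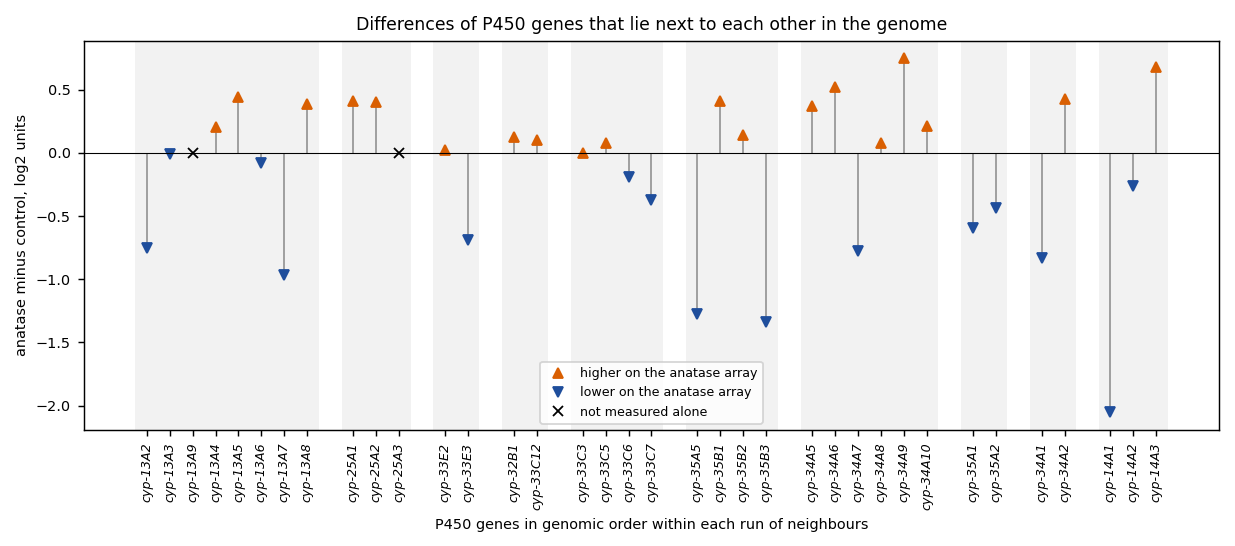
Difference (anatase minus control, log2 units) of P450 genes in 10 runs of neighbours, each on a shaded band in genomic order, with upward triangles for higher and downward triangles for lower readings on the anatase array and crosses for genes not measured alone. In 7 bands the triangles point both ways, as in the run from cyp-35A5 to cyp-35B3, which spans −1.34 to 0.41.

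The plot of neighbours gives the mixed runs in full. The run of cyp-35A5, cyp-35B1, cyp-35B2 and cyp-35B3 had its outer genes at −1.28 and −1.34 and its inner genes at 0.41 and 0.14. In the run from cyp-34A5 to cyp-34A10, 5 of 6 genes were higher, with cyp-34A7 at −0.78. In the run from cyp-13A2 to cyp-13A8, 3 of the 7 measured genes were higher and 4 lower. The run of cyp-14A1, cyp-14A2 and cyp-14A3 went from −2.05 over −0.27 to 0.68. As no array build is named here, no coordinates are given.

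Of 8 listed partners of the P450 enzymes and hormone synthesis genes, 6 were measured, 3 higher and 3 lower, with a median of −0.0027. None passed 2-fold, which for 6 genes is near the background of 1.58% higher and 3.48% lower. emb-8, the gene of the NADPH reductase that feeds electrons to P450 enzymes, read 149.9 on the control array and 175.6 on the anatase array, a difference of 0.21. daf-9, a P450 gene with another name that makes the steroid hormone dafachronic acid, read 115.7 and 120.1, a difference of 0.05, and daf-36, of the same pathway, was at −0.05. The short-chain dehydrogenase gene dhs-16, also of that pathway, was at −0.68, from 62 to 32.8.

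Of 18 listed regulators, 16 were measured, 4 higher and 12 lower, with a median of −0.14, where 54.7% of all genes were lower. None passed 2-fold, again near the background. skn-1, the detoxification transcription factor gene, was at 0.51, from 116.4 to 173. daf-16 was at −0.37, the receptor gene nhr-8 at −0.02, and the mediator subunit gene mdt-15, which works with nuclear receptors in fat and detoxification genes, at −0.33. nhr-176 was at −0.58, from 199 to 128.1.

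All 5 genes of the haem transport list were measured, and 4 were higher, with a median of 0.26, where 54.7% of all genes were lower. Of the higher ones, hrg-7 was nearly level, from 3052.6 to 3091.2. The contrast with all genes was not tested. hrg-4, a haem importer of the intestine, was at 0.44, from 126 to 176.8, and hrg-1 was at −0.19. Among the conjugating enzymes, 43 of 64 UDP-glucuronosyltransferases and 25 of 40 glutathione S-transferases were lower, where 54.7% of all genes were lower. At least 2-fold lower were 5 and 0 of them, where 3.48% of all genes were, and none was at least 2-fold higher, where 1.58% of all genes were.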

How the data were processed

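Per the labels' protocols, RNA was taken up in Trizol, and cRNA carrying biotin was made from it by the Affymetrix procedure for its arrays. The values the authors deposited are intensities on a linear scale. Transcriptome Analysis Console is the tool named in the submitters' processing notes, with no version or settings. After trimming 2% at each end, the arrays had means of 495.1 (control) and 494.6 (anatase). Of 22548 probe sets, 20766 name 1 gene, 887 several and 895 are unnamed here. Intensities became log2(intensity + 16), and a gene's probe sets were averaged on that scale. No filter on low values was used, and no test or error was computed. Probe sets whose ID ends other than in a number and _at count as shared types.

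The members and lists were chosen with earlier results of these data known. Values on both arrays are given for members at least 2-fold apart, the 5 largest differences in each direction at or above the median brightness, members with probe sets of opposite sign (there were 0) and members with a known role or regulation; other members given were added after their values were seen.

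Alternatives were median centring, loess (span 30%), quantile normalization, pseudocounts of 1 and 64, the brightest probe set, no shared probe sets, brightness filters and other thresholds. The steps were tested on simulated data in which only genes at or above the median brightness were changed. That check does not cover dim genes, where every P450 difference past 2-fold lies. Python 3.11.15, numpy 2.4.6, pandas 2.3.3, statsmodels 0.14.6 and matplotlib 3.10.9 were used.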

Additional observations from a re-analysis of the deposited data

Results flagged for a closer look

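Probe sets that name several P450 genes were left out of every comparison above, and both that exist read higher on the anatase array than on the control array. The probe set shared by cyp-25A4 and cyp-25A5 read 91.2 on the control array and 112.2 on the anatase array, a difference of 0.26. The probe set shared by cyp-13A11 and cyp-13A12 read 1.3 and 3.7, a difference of 0.19, and both of its readings lie below 16. With 1 array per group, neither difference was tested.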

How the results depend on the processing

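No paired analysis was possible because a group holds only 1 array. The family median of −0.08 was −0.02 with each array centred on its median, 0.07 after the loess correction or quantile normalization, −0.10 for a pseudocount of 1, −0.03 for 64, −0.05 with the brightest probe set, −0.0073 without shared probe sets, 0.01 and 0.05 with the brightness filters at the 25th percentile (46 genes) and the median (24 genes), and −0.04 without pseudogenes, an alternative chosen after seeing the data. Counts at least 2-fold higher and lower, 1 and 5, became 4 and 16 when the pseudocount was 1. When it was 64, or with either brightness filter, both were 0. Taking 1.5-fold instead gave 3 higher and 14 lower genes, and 3-fold gave 0 and 2. They stayed at 1 and 5 under the 3 scalings, with the brightest probe set and without pseudogenes, and were 1 and 4 without shared probe sets, where cyp-23A1 was at −0.90. Of the 34 genes named by rule, 32 kept their sign in every alternative that measured them, and the exceptions were cyp-29A3 and cyp-35A4. Only the scalings could turn a sign, as no member had probe sets of opposite sign. The other alternatives are thus no check of direction. The folds of the dim genes depend on the pseudocount, and their signal over background is unknown.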
